A study of Mus musculus with 15 samples.

Results

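The genes described here encode the proteins of the cytosolic ribosome. Members were chosen by symbol, as every row of the deposited count table named Rpl, Rps, Rplp or Rpsp followed by digits and, in some, by further letters a, l or x or digits. This gave 84 of the 24054 genes listed, 52 of the large subunit and 32 of the small subunit. Of these, 81 had enough counts to be tested (49 and 32). The other 3, Rpl3l, Rpl10l and Rpl39l, are copies of Rpl3, Rpl10 and Rpl39 and had too few counts. The rule uses names only and no measured value. It misses, for example, Rpsa and Fau, which also encode ribosomal proteins and are described apart from the members.

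Whole lungs of 15 wild-type female Balb mice were sequenced, 5 per group. All mice received an antibody. Saline mice were sham-sensitised and given the isotype control antibody. OVA mice were sensitised to ovalbumin by intraperitoneal injection, challenged with nebulised ovalbumin as a model of allergic asthma, and given the isotype control. Anti-IL-4Ra mice were sensitised and challenged in the same way and given a monoclonal antibody to mouse IL-4Ra, the receptor chain through which interleukin-4 and interleukin-13 signal, at 30 mg/kg. Ages, the timing of doses and of tissue collection, and sequencing dates are not stated in the labels. The replicates are labelled as biological, and nothing states which mice shared a cage or a day.

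The cytosolic ribosome joins a small subunit, which decodes the mRNA, to a large subunit, which forms the peptide bond, and each is built from ribosomal RNA and a fixed set of proteins. The proteins are made in step with each other and with the RNA, and those left without a partner are degraded. Most of their mRNAs begin with a run of pyrimidines, the TOP motif, through which mTOR signalling controls their translation. Growing and dividing cells, activated lymphocytes among them, make many ribosomes. Rn45s is the 45S precursor from which the RNAs 18S, 5.8S and 28S are cut, so its share of counts is also a measure of how much ribosomal RNA stayed in a library.

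Total expected counts ran from 16774300 to 27570700 in saline lungs, from 10042800 to 14706100 in OVA lungs and from 12317800 to 16914500 in anti-IL-4Ra lungs. Saline 1 to 4 were thus deeper than every other library, and saline 5 was deeper than every one but these and anti-IL-4Ra 5. Levels are in CPM, read counts relative to the TMM-scaled total of the library, and all adjusted p-values of genes come from edgeR's quasi-likelihood test with Benjamini-Hochberg adjustment over 15905 genes, with 0.05 as the threshold. Lung markers were present: the 8 markers of alveolar type 2 cells, surfactant genes among them, held 1.33 to 1.95% of saline counts. Cardiac muscle markers, from heart tissue that can be taken with a lung, held 0.0717 to 0.205% in saline, 0.0164 to 0.188% in OVA and 0.0119 to 0.0572% in anti-IL-4Ra lungs. In whole tissue, a change in which cells are present and a change in RNA per cell cannot be told apart. Libraries that stood apart for the ribosomal protein genes are named beside the results they touch.

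The starts of these genes were searched for 2 features known from the family, a C and T run near the start and a binding sequence of the ETS family (CCGGAAG). The set of RefSeq promoters used here (mouse GRCm38.p6) listed a start for 63 members. An unbroken run of at least 8 C or T on the gene's strand, within 50 bases before to 50 after a listed start, was found in 53 of the 63 (84.1%), against 39.3% of 27025 genes with a listed start. CCGGAAG on either strand, in the window of 300 bases from 250 before to 50 after, was in 25 members (39.7%) and in 9.93% of all genes. TATAAA on either strand of the same window was in 11.1% of members and 15.7% of all genes. These shares describe sequence only, and the length of the run and its window were chosen after looking at members. The following stretches, 5′ to 3′ on the gene's strand from 40 bases before to 30 after the start, are of genes called higher in the tests that follow (Rps12, Rps2, Rpl5, Rpl36a, Rps3a1 and Rplp2) and of genes at the low end with OVA (Rpl34, Rpl26 and Rpl37). Of the 2 starts listed for Rpl34, only the downstream start is printed, and the window of the other held a run and no CCGGAAG. Capitals mark C and T runs of at least 8 bases and CCGGAAG or its reverse complement within the stretch printed.
Rps12 (chr10:23787180-23787249, minus strand): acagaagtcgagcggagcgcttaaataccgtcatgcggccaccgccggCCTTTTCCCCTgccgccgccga
Rps2 (chr17:24720023-24720092, plus strand): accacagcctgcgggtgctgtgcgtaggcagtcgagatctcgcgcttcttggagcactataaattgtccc
Rps3a1 (chr3:86142639-86142708, minus strand): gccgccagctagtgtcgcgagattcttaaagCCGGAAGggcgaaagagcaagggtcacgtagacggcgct
Rpl5 (chr5:107900488-107900557, plus strand): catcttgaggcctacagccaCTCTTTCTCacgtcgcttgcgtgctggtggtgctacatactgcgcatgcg
Rpl36a (chrX:134585614-134585683, plus strand): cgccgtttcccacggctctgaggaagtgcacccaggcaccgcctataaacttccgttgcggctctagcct
Rplp2 (chr7:141447611-141447680, plus strand): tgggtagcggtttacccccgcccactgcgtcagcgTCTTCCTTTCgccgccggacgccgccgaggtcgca
Rpl34 (chr3:130730308-130730377, minus strand): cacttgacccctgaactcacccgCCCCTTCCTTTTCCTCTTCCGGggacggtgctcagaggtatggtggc
Rpl26 (chr11:68901526-68901595, plus strand): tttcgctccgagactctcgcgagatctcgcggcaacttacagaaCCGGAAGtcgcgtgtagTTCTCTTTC
Rpl37 (chr15:5116573-5116642, plus strand): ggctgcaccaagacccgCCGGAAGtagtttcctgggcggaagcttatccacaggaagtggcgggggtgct
In Rps12, Rpl5 and Rplp2 the run lies inside the printed stretch. In Rps2 and Rpl36a it reaches past its end and is therefore not in capitals. Rps3a1 had the ETS sequence and no such run. Within their full windows CCGGAAG was in Rps2, Rps3a1 and Rplp2 of the 6 printed that were called higher. It was also in all 3 of Rpl34, Rpl26 and Rpl37, which were not called. A run was in 5 of these 6 and in all 3. Rplp2 was called only with anti-IL-4Ra over saline. Rps27a, Rpl30, Rps24 and Rpl3, also called higher, are not printed, and Rps24 had a run and no CCGGAAG. The genes printed were picked, so these counts do not compare called with uncalled members.

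Summed over the 84 genes, ribosomal protein mRNAs held 1.76, 2.04, 2.66, 2.50 and 2.19% of counts in saline lungs 1 to 5. They held 2.58, 3.51, 2.35, 2.12 and 2.15% in OVA lungs 1 to 5 and 2.21, 2.85, 2.46, 3.51 and 2.31% in anti-IL-4Ra lungs 1 to 5. Group means were 2.23 ± 0.359, 2.54 ± 0.570 and 2.67 ± 0.531% (SD, n = 5), and the groups overlapped. OVA 2 and anti-IL-4Ra 4 were highest and saline 1 lowest. Lungs of a group differed across most of the genes at once. In OVA 2, 80 of the 81 tested genes lay above their own median over the 15 lungs, and in anti-IL-4Ra 4 the number was 75, while it was 3 in saline 1 and in OVA 4. The large subunit genes alone held 1.32 ± 0.198, 1.45 ± 0.326 and 1.55 ± 0.318% of counts in the 3 groups, and the small subunit genes 0.909 ± 0.162, 1.09 ± 0.246 and 1.12 ± 0.213%.

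**Figure D1:**
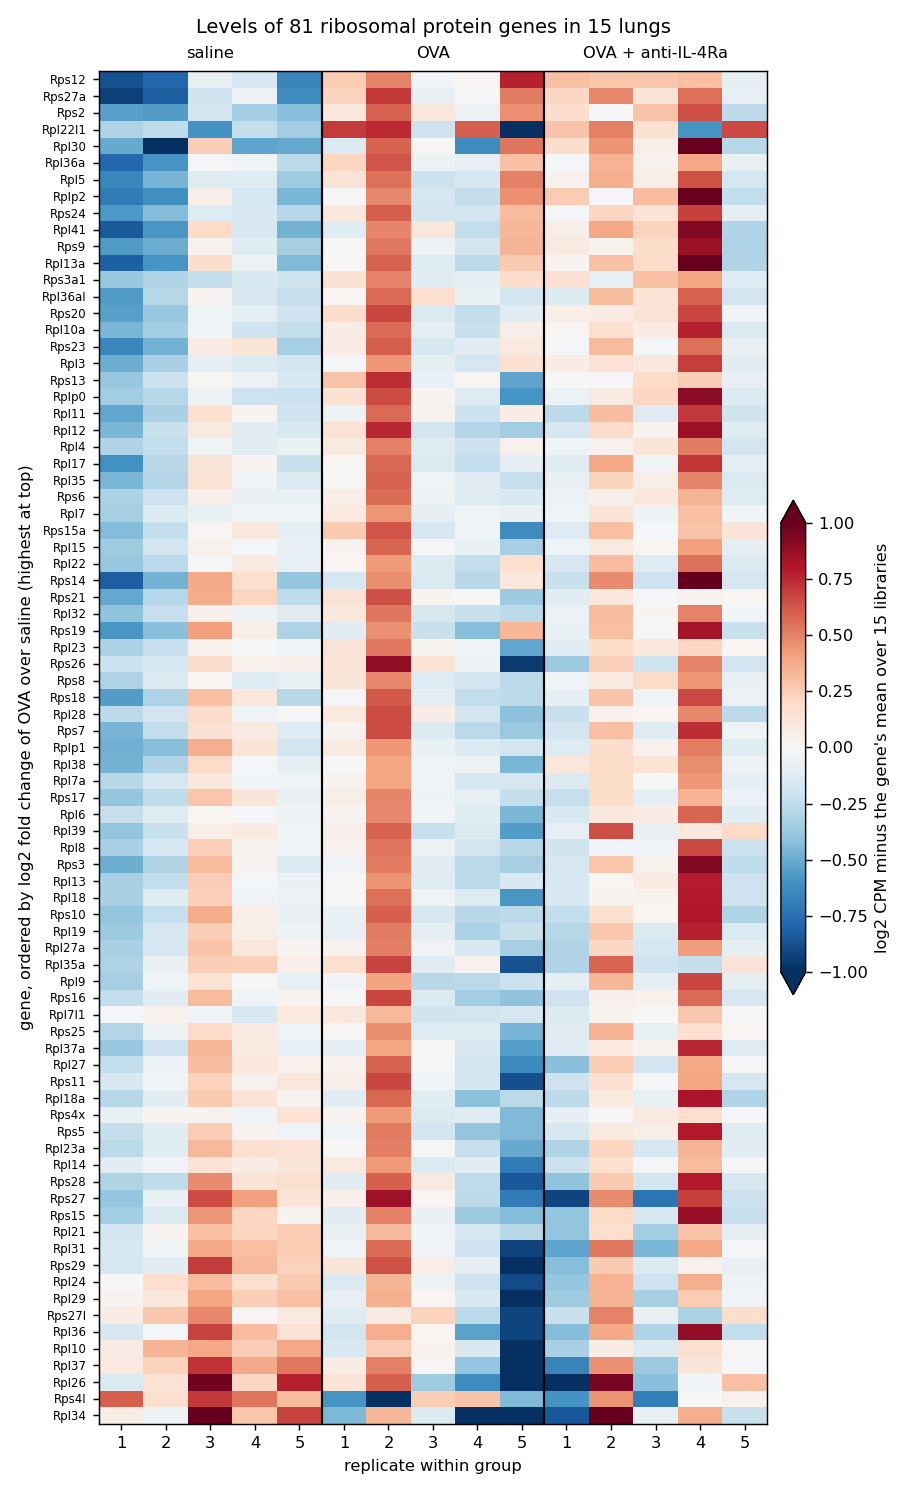
Each row is a tested ribosomal protein gene and each column a lung, ordered by group; color gives log2 CPM minus the gene's mean over all 15 lungs, with rows ordered by the OVA over saline fold change. OVA 2 and anti-IL-4Ra 4 are red and saline 1 is blue over most rows, while OVA 5 runs from red at the top to dark blue at the bottom.

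In OVA lungs, 6 of the 81 tested genes rose over saline and 1 fell, and the rest did not pass the test. The genes that rose were Rps12, Rps27a, Rps2 and Rps3a1 of the small subunit and Rpl36a and Rpl5 of the large subunit, with log2 fold changes of 0.39 to 0.81. The gene that fell was Rps4l, a copy of the small subunit gene Rps4x. Among all genes tested, 37.1% were called in this comparison and 19.3% were called higher, and the members' 7 of 81 lay below that background. With RLE size factors or library totals in place of TMM, 7 members were called higher and 0 lower, so the call of Rps4l depended on the scaling. The median log2 fold change of the 81 was 0.13, beside 0.02 over all genes.

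Rps12 encodes a small subunit protein on which cell competition between neighbouring cells depends in flies. Its level was 261, 278, 452, 422 and 303 CPM in saline lungs 1 to 5, 568, 674, 468, 485 and 813 in OVA lungs and 587, 578, 577, 587 and 445 in anti-IL-4Ra lungs. Every OVA lung was above every saline lung, and saline 1, 2 and 5 were the lowest. The log2 fold change of OVA over saline was 0.81 (SE 0.19, adjusted p = 0.00358), the largest among the members.

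Rps27a encodes ubiquitin fused to a small subunit protein, from which it is cleaved. It stood at 259, 279, 431, 477 and 320.1 CPM with saline, 579, 809.9, 470.2, 493 and 712 with OVA and 573, 691, 543, 724 and 467 with anti-IL-4Ra. Only saline 4 reached the level of the lowest OVA lung. Its log2 fold change with OVA was 0.79 (SE 0.20, adjusted p = 0.00649).

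Rps2 encodes a protein near the channel where mRNA enters the small subunit. Saline lungs held 383, 379.5, 491, 442 and 417 CPM, OVA lungs 601, 839.8, 606, 537 and 767 and anti-IL-4Ra lungs 631, 562, 682, 875 and 465. OVA and saline lungs did not overlap, and OVA 2 and 5 were highest among OVA lungs. The log2 fold change with OVA was 0.67 (SE 0.17, adjusted p = 0.00661). Rps3a1, the mouse gene of the protein RPS3A near the mRNA exit, had the smallest spread of these among saline lungs, at 517, 546, 568, 602 and 586 CPM. It reached 744, 947, 623, 632 and 758 with OVA and 744, 633, 827, 882 and 613 with anti-IL-4Ra, and no lung of either OVA-challenged group fell to the saline range. Its log2 fold change with OVA was 0.39 (SE 0.14, adjusted p = 0.0378). Rps12, Rps2 and Rps3a1 were the 3 members whose OVA and saline lungs did not overlap, where 26.6% of all genes did not overlap.

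Among large subunit genes, Rpl5 encodes a protein that carries 5S ribosomal RNA into the ribosome and, when free, binds and inhibits Mdm2. It was at 415, 473, 601, 601 and 511 CPM with saline, 716, 960.4, 563, 578 and 926 with OVA and 673, 841, 683, 1015 and 580.5 with anti-IL-4Ra. OVA 3 and 4 lay within the saline range, and the log2 fold change with OVA was 0.53 (SE 0.19, adjusted p = 0.0406). Its partner in the same complex, Rpl11, was not called, at 242 ± 45.5 CPM with saline and 289 ± 64.2 with OVA (SD, n = 5; log2 fold change 0.26, SE 0.20, adjusted p = 0.330). Rpl36a, of a large subunit protein close to the site where spent tRNA leaves, held 79.9, 91.1, 135, 135 and 114 CPM with saline, 159, 212, 133, 129.6 and 168 with OVA and 135, 174, 142, 180 and 131 with anti-IL-4Ra. OVA 3 and 4 again lay within the saline range, and the log2 fold change with OVA was 0.53 (SE 0.17, adjusted p = 0.0243).

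At the low end, Rps4l held 13.2, 9.80, 14.3, 12.7 and 10.9 CPM with saline, 5.83, 4.30, 10.4, 10.7 and 6.46 with OVA and 5.78, 12.0, 5.46, 8.80 and 9.03 with anti-IL-4Ra. OVA 3 and 4 lay within the saline range and the other OVA lungs below it. The log2 fold change with OVA was -0.69 (SE 0.26, adjusted p = 0.0471). Rpl34, Rpl26 and Rpl37, all of the large subunit, had log2 fold changes of -0.91, -0.62 and -0.54 with adjusted p of 0.0945, 0.203 and 0.162, and none passed. Rpl34 was at 22.6, 20.9, 47.0, 26.0 and 34.6 CPM in saline and 15.9, 27.2, 19.7, 9.57 and 8.18 in OVA lungs, with OVA 4 and 5 lowest. Rpl26 was at 137, 168, 297, 176 and 261 CPM in saline and 166, 231, 119, 98.7 and 61.3 in OVA lungs, with OVA 5 lowest. Rpl37 was at 73.3, 80.0, 112, 88.8 and 98.4 CPM in saline and 72.1, 96.9, 68.7, 52.3 and 21.2 in OVA lungs, and OVA 5 was again lowest. OVA 5 was the shallowest library, had the largest Rn45s share and had the widest spread among the members (SD 0.495 on the log2 scale, against 0.108 to 0.354 in the other 14).

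**Figure D2:**
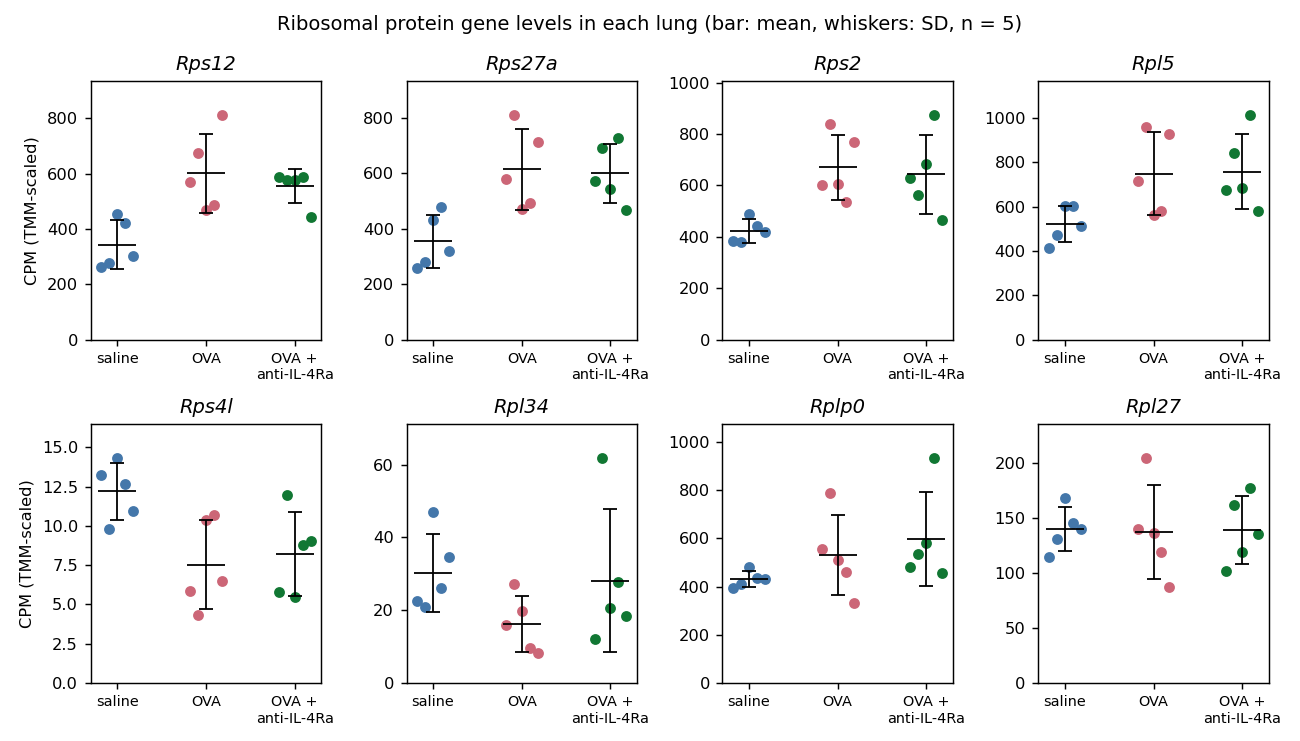
Points are lungs, bars group means and whiskers SD (n = 5), in CPM on linear axes that start at 0, for 4 genes called higher with OVA (Rps12, Rps27a, Rps2, Rpl5), the gene called lower (Rps4l), the gene with the lowest fold change (Rpl34) and a pair used as references (Rplp0, Rpl27). OVA lungs lie above all saline lungs for Rps12 and Rps2 and overlap them in the other panels.

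Most changes were small beside those of other genes. The median size of the log2 fold change, without its sign, was 0.184 for the 81 and 0.369 for all genes tested, at median SEs of 0.193 and 0.189. The change was within 0.25 on the log2 scale for 51 of the 81, and none reached 1, where 15.4% of all genes did. The large subunit had 2 higher and 0 lower of 49 (median 0.10), the small subunit 4 higher and 1 lower of 32 (median 0.15). Rps12, Rps27a and Rps2 kept their calls in all 10 fits that each left out a lung of the comparison. Rpl36a kept its call in 6, Rpl5 in 4, and Rps3a1 and Rps4l in 3 each of the 10, with adjusted p up to 0.0926, 0.114, 0.108 and 0.111. The count of 7 called members was 3 without saline 1, 4 without saline 2, 4 without saline 5, and 3 without OVA 1. It was 9 without OVA 3, 8 without OVA 4, 5 or 6 without each of the others, and 1 without saline 1 and 2 together. The share of all genes called was 29.8 to 39.9% without single lungs and 23.9% without saline 1 and 2. The members' median turned to -0.04 without OVA 2 and to -0.03 without saline 1 and 2.

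In lungs given anti-IL-4Ra during OVA, 9 of the 81 genes rose over saline and 0 fell. Among all genes, 26.6% were called and 13.9% were called higher. The median over the members was 0.20, beside 0.02 over all genes. This comparison uses the same saline lungs as the last, so the 2 are not independent. Rps12, Rps27a, Rps2, Rps3a1 and Rpl5 had log2 fold changes of 0.69, 0.76, 0.61, 0.39 and 0.54, with adjusted p of 0.0135, 0.0122, 0.0161, 0.0499 and 0.0453. The lungs of the group that fell within the saline range were anti-IL-4Ra 5 for Rps12, Rps27a, Rps2 and Rpl5, and none for Rps3a1.

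The others called were Rpl30, Rplp2, Rps24 and Rpl3. Rpl30, a large subunit protein known in yeast for controlling the splicing of its own transcript, held 8.86, 5.03, 14.9, 8.72 and 8.80 CPM with saline and 14.2, 17.2, 13.1, 45.2 and 10.3 with anti-IL-4Ra. Anti-IL-4Ra 4 stood far above all others, and the log2 fold change was 1.11 (SE 0.38, adjusted p = 0.0421). Without that lung it was 0.54 (adjusted p = 0.176). Rpl30 had only 965 expected counts over the 5 saline lungs, and its values were fractional in all 15 lungs, which is how RSEM divides reads that match several sequences.

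Rplp2 encodes a protein of the stalk that recruits elongation factors to the large subunit. It was at 127, 135, 215, 182 and 150 CPM with saline and 246, 207, 255, 424 and 174 with anti-IL-4Ra, with anti-IL-4Ra 2 and 5 inside the saline range (log2 fold change 0.69, SE 0.23, adjusted p = 0.0368). Rps24, of a small subunit protein mutated in some families with Diamond-Blackfan anemia, was at 358, 395, 488, 479.9 and 439 CPM with saline and 528, 619.6, 588, 860 and 499 with anti-IL-4Ra, without overlap (log2 fold change 0.52, SE 0.18, adjusted p = 0.0434). Rpl3, of a protein near the site of peptide bond formation, was at 421, 469.8, 555, 535 and 517 CPM with saline and 619, 652, 636, 951 and 549.5 with anti-IL-4Ra, with anti-IL-4Ra 5 inside the saline range (log2 fold change 0.45, SE 0.16, adjusted p = 0.0478). In OVA lungs the same 4 genes had log2 fold changes over saline of 0.58, 0.49, 0.47 and 0.32, with adjusted p of 0.247, 0.106, 0.0504 and 0.126. Groups did not overlap for 3 members, Rps20, Rps24 and Rps3a1, against 19.8% of all genes. At the low end, Rps4l was at -0.57 (SE 0.26, adjusted p = 0.112) and Rpl37 at -0.45 (SE 0.29, adjusted p = 0.270) on the log2 scale, and neither passed.

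Most of these calls were lost in some of the 10 fits that each left out a lung. Some were lost though the fold change did not shrink, as for Rpl3 without saline 3 (0.49, edgeR adjusted p = 0.0547). Rps12, Rps27a and Rps2 kept theirs in all 10 fits that each left out a lung. Rplp2 kept its call in 4, Rpl30, Rps24 and Rpl5 in 3 each, Rps3a1 in 2 and Rpl3 in 1, and for each of these 6 the largest adjusted p, 0.116 to 0.176, came without anti-IL-4Ra 4. The count of 9 fell to 3 without any of saline 1, saline 2, saline 5, anti-IL-4Ra 1 or anti-IL-4Ra 4, and to 4 without anti-IL-4Ra 3. It was 15 without anti-IL-4Ra 5, 10 without saline 3, 6 without anti-IL-4Ra 2, 7 without saline 4 and 0 without saline 1 and 2 together. The share of all genes called was 17.8 to 29.2% without single lungs, among them 26.2% without anti-IL-4Ra 4, and 12.9% without saline 1 and 2. Without anti-IL-4Ra 4 the members' median was 0.06, and without saline 1 and 2 it was 0.10.

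Between anti-IL-4Ra and OVA lungs, none of the 81 genes was called by edgeR, and 0 had an unadjusted p under 0.05. DESeq2 and limma voom also called 0, with 1 and 0 members at an unadjusted p under 0.05. Among all genes, 0.302% were called. The median log2 fold change of the members was 0.10, beside -0.00206 over all genes, and 76 of 81 were within 0.25. The 3 smallest p-values belonged to Rpl34, Rpl30 and Rpl9, with log2 fold changes of 0.80 (SE 0.41), 0.53 (SE 0.38) and 0.23 (SE 0.17). Rps14, with Rpl34 and Rpl30 the farthest from the members' median, was at 0.35 (SE 0.30), and in it anti-IL-4Ra 4 held 989.8 CPM against 347 to 561 in the other 4 lungs of its group. For Rps12, Rps27a and Rps2 the values were -0.12 (SE 0.19, adjusted p = 1.000), -0.03 (SE 0.20, adjusted p = 1.000) and -0.06 (SE 0.17, adjusted p = 1.000). With SEs of 0.115 to 0.411 over the members, a change of the size seen with OVA could have been missed in single genes, so these values do not show that the groups were alike.

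**Figure D3:**
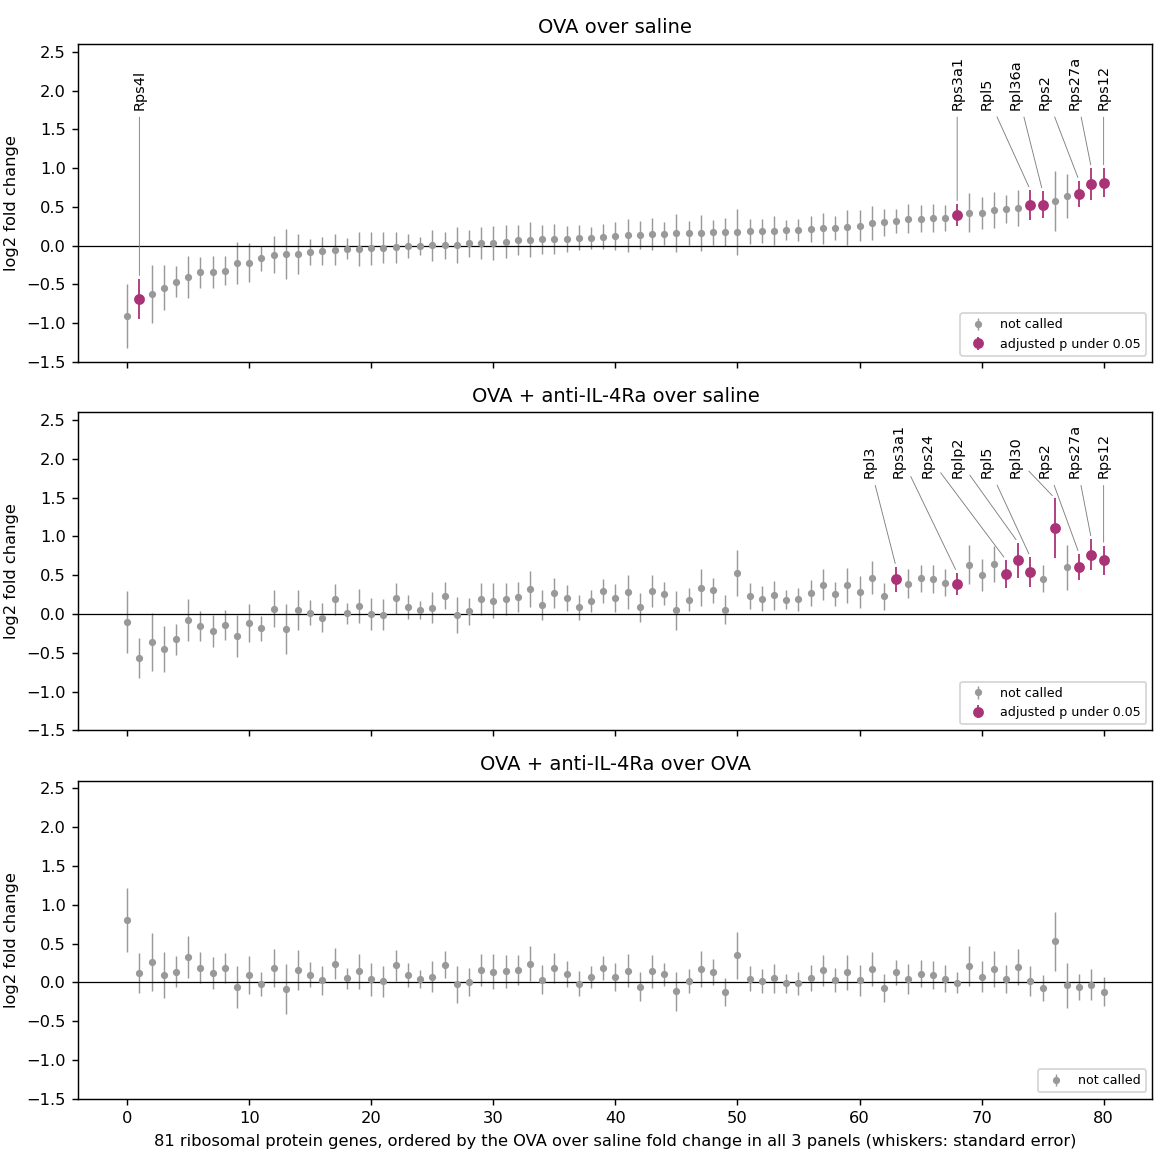
Points are log2 fold changes of the 81 tested genes and whiskers their SEs, in the same gene order in all 3 panels, with genes at an adjusted p under 0.05 in purple. Called genes lie at the right in both comparisons with saline, apart from Rps4l at the left of the first, and none is called in the comparison of anti-IL-4Ra with OVA.

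Rn45s held 2.88, 1.19, 1.71, 1.73 and 1.24% of counts in saline lungs 1 to 5, 5.50, 8.47, 4.99, 4.31 and 12.4% in OVA lungs and 9.80, 3.10, 9.79, 12.4 and 1.65% in anti-IL-4Ra lungs. Every OVA lung was above every saline lung, while anti-IL-4Ra 5 fell within the saline range. The mean share was 5.39 percentage points higher with OVA than with saline (two-sided exact permutation test, p = 0.00794, the smallest 5 against 5 allows, adjusted p = 0.0238 over 3 comparisons). It was 5.60 points higher with anti-IL-4Ra than with saline (exact permutation p = 0.0317, adjusted p = 0.0476), and 0.203 points higher with anti-IL-4Ra than with OVA (exact permutation p = 0.952). Without any 1 of the saline libraries 1 to 5, anti-IL-4Ra over saline no longer passed, at 5.45 to 5.88 points (exact permutation, adjusted p = 0.107 to 0.119). Protocols of the labels name both depletion of ribosomal RNA and oligo-dT beads, and differences in preparation and in the tissue cannot be told apart in this share.

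Across lungs, the summed share of ribosomal protein mRNA differed at like Rn45s shares. The 2 lungs with the largest Rn45s shares, OVA 5 and anti-IL-4Ra 4 (both 12.4%), differed in ribosomal protein mRNA, at 2.15 and 3.51%. Leaving Rn45s out of the totals gave 2.27 ± 0.360, 2.74 ± 0.636 and 2.90 ± 0.664% in the saline, OVA and anti-IL-4Ra groups. In single genes, with log2 of the Rn45s share added to the fit, 0 of 81 members were called by edgeR in either comparison with saline (1 in each at an unadjusted p under 0.05), where 4.73% and 2.35% of all genes were. The members' medians became -0.00484 with OVA and 0.08 with anti-IL-4Ra. Rps12 was then at 0.45 (SE 0.25, adjusted p = 0.268), Rps27a at 0.50 (SE 0.29, adjusted p = 0.281) and Rps2 at 0.17 (SE 0.18, adjusted p = 0.580) for OVA over saline. The share differed between the groups, so a fit that holds it fixed can also remove part of a group difference. The SEs of Rps12, Rps27a and Rps2 were also larger in this fit than without the share.

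The slope on the Rn45s share within this fit, a test added after seeing the data, was called for 2 members, Rps2 (0.24 per doubling of the share, SE 0.06, adjusted p = 0.0394) and Rplp2 (0.33, SE 0.09, adjusted p = 0.0440), both upward, where 8.04% of all genes were called. It was above 0 for 59 of 81 members and ran from -0.37 (Rpl26) to 0.48 (Rpl30). Without the 4 libraries above 9% Rn45s, OVA 5 and anti-IL-4Ra 1, 3 and 4, 8 of 82 members tested rose with OVA over saline, 4 of them among the 7 above, where 36.4% of all genes were called. Rps12, Rps2, Rps27a and Rps3a1 were at 0.68, 0.62, 0.74 and 0.39 on the log2 scale. For anti-IL-4Ra over saline, 1 member, Rpl22l1, was then called and none of the 9 above, with 2 anti-IL-4Ra lungs left, and the share of all genes called fell from 26.6% to 3.47%.

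**Figure D4:**
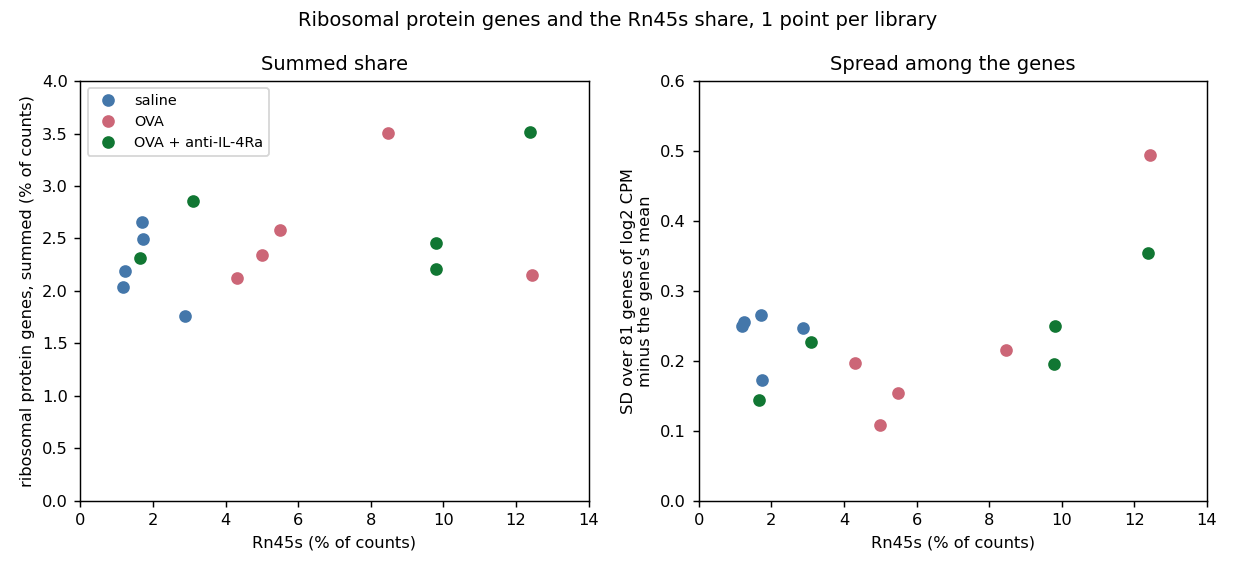
Each point is a library; the x axes give the Rn45s share of counts, and the y axes the summed share of the 84 ribosomal protein genes (left) and the SD over 81 genes of log2 CPM minus each gene's mean (right). The libraries at 12.4% Rn45s lie at 2.15% and 3.51% in the left panel and highest in the right panel.

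Of the 5 paralogs among the members with enough counts, 0 rose and Rps4l fell with OVA, and none was called with anti-IL-4Ra over saline. Of all genes, 37.1% and 26.6% were called in these comparisons. Rpl22l1, the paralog of Rpl22, held 33.1, 34.1, 26.8, 34.5 and 31.9 CPM with saline, 65.9, 68.3, 35.2, 61.4 and 18.9 with OVA and 49.5, 57.7, 45.1, 27.0 and 64.1 with anti-IL-4Ra. OVA 1 to 4 lay above the saline range, OVA 3 only just, and OVA 5 lay below it. Its log2 fold changes over saline were 0.64 (SE 0.29, adjusted p = 0.0918) with OVA and 0.60 (SE 0.29, adjusted p = 0.131) with anti-IL-4Ra. Without the 4 libraries above 9% Rn45s they were 0.85 (SE 0.16, adjusted p = 0.00220) and 0.95 (SE 0.19, adjusted p = 0.0203).

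Rpl36al, the copy of Rpl36a, was at 75.6 ± 11.1, 96.7 ± 20.8 and 100.1 ± 23.0 CPM in saline, OVA and anti-IL-4Ra lungs (SD, n = 5), with a log2 fold change with OVA of 0.36 (SE 0.17, adjusted p = 0.111). Rps27l, a copy of Rps27 that p53 can induce, was at 29.1 ± 4.01, 22.8 ± 6.27 and 26.1 ± 6.26 CPM, with -0.35 (SE 0.20, adjusted p = 0.180). Rpl7l1, a paralog of Rpl7, had the smallest spread over the 15 lungs of all tested members (SD 0.159 on the log2 scale), at 61.6 ± 3.85, 61.6 ± 10.5 and 63.7 ± 6.83 CPM. Within each lung and without scaling for length, the log2 ratio of Rps4l to Rps4x was -5.23 ± 0.27 with saline and -5.93 ± 0.79 with OVA, and that of Rpl22l1 to Rpl22 -2.24 ± 0.27 and -1.93 ± 0.84 (SD, n = 5). Near-identical copies can exchange reads in the authors' counting, so values of paralogs are uncertain. Rpl3l, the copy used in striated muscle, had 67, 26 and 22 counts over the saline, OVA and anti-IL-4Ra lungs. Cardiac muscle markers held the shares given above, and their part in Rpl3l was not tested. Rpl10l and Rpl39l, known from the testis, had 0, 2 and 1 counts and 2, 5 and 8 counts, which is at most 8 counts over 5 libraries.

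Rplp0, Rpl13a, Rpl19, Rpl27, Rpl32, Rps18 and Rps29 are members often used as references in quantitative PCR. None of these 7 was called by edgeR with all 15 lungs in any of the 3 comparisons. The shares of all genes called were 37.1% with OVA over saline, 0.302% with anti-IL-4Ra over OVA and 26.6% with anti-IL-4Ra over saline. Of the 7 references, 0, 0 and 2 were at an unadjusted p under 0.05, in the same order. Their log2 fold changes ran from -0.22 (Rps29) to 0.43 (Rpl13a) with OVA over saline. With anti-IL-4Ra over saline they ran from -0.28 (Rps29) to 0.64 (Rpl13a). In that comparison Rpl13a passed in 3 of the 23 alternatives run for it, 2 of them fits that left out a lung. Rplp0, the base of the stalk, was at 395, 413, 483, 434 and 433 CPM with saline, 558, 787, 511, 459 and 333 with OVA and 482, 535, 581, 935 and 456 with anti-IL-4Ra. Without the 4 libraries above 9% Rn45s, Rplp0 was called with OVA over saline (0.43, adjusted p = 0.0364). Saline lungs lay close together, and OVA-challenged lungs spread from below to far above them. Rpl13a was at 427 ± 120, 573 ± 142 and 664 ± 261 CPM, Rpl19 at 372 ± 59.9, 381 ± 97.4 and 426 ± 139.9, and Rpl27 at 140.1 ± 19.7, 138 ± 42.9 and 139 ± 31.0 (saline, OVA and anti-IL-4Ra, SD, n = 5). In the same order, Rpl32 was at 199 ± 23.4, 224 ± 56.4 and 246 ± 43.0, Rps18 at 267 ± 65.2, 297 ± 83.8 and 327 ± 79.6, and Rps29 at 289 ± 73.8, 248 ± 103 and 238 ± 41.0 CPM. The SD was larger with OVA than with saline in all 7.

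Rps6, the protein that S6 kinases phosphorylate, was not called, at 450.1 ± 43.1, 517 ± 116 and 513 ± 65.6 CPM in saline, OVA and anti-IL-4Ra lungs (SD, n = 5; log2 fold changes over saline 0.20, SE 0.14, adjusted p = 0.290 and 0.19, SE 0.14, adjusted p = 0.347). Rps19, the gene most often mutated in Diamond-Blackfan anemia, was at 223 ± 65.1, 250 ± 65.4 and 282 ± 90.3 CPM and was not called either (0.17, SE 0.23, adjusted p = 0.602 and 0.34, SE 0.24, adjusted p = 0.294).

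Of ribosomal proteins whose symbols fall outside the rule, Rpsa rose in both comparisons with saline and Fau was not called. Rpsa encodes a small subunit protein also known as the laminin receptor. It was at 434, 443, 630.5, 584 and 491 CPM with saline, 793, 1226, 682, 619.8 and 973 with OVA and 725, 734, 773, 1520 and 617 with anti-IL-4Ra, with anti-IL-4Ra 4 and OVA 2 highest. Its log2 fold changes over saline were 0.73 (SE 0.24, adjusted p = 0.0277) and 0.76 (SE 0.24, adjusted p = 0.0317). It kept its call in 4 and 6 of the 10 fits without a lung, and its largest adjusted p came without OVA 2 (0.57, adjusted p = 0.0846) and without anti-IL-4Ra 4 (0.44, adjusted p = 0.0967). Fau, which like Rps27a encodes a fusion protein, here of a ubiquitin-like protein and a ribosomal protein, had a log2 fold change with OVA of 0.17 (SE 0.23, adjusted p = 0.582). The difference between Fau and Rps27a, at 0.79, was not tested.

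Many ribosomal protein genes carry snoRNA genes in their introns. By GENCODE M21, 29 of the 83 members found among its protein-coding genes hold at least 1 (55 snoRNA genes in all). Rps4l was not found among these, and genes of other types were not searched. With OVA over saline, 4 of these 29 rose and 0 fell (median 0.17), against 2 and 0 of the 51 tested members without (median 0.12). With anti-IL-4Ra over saline, 7 of 29 and 2 of 51 rose. Over all genes, 19.3% rose with OVA and 13.9% with anti-IL-4Ra. This split was made after the data were seen, and the difference was not tested. The authors' counts of 28 members were not whole in at least 1 library, as RSEM divides reads that match several sequences, and 59 members have a named pseudogene. Rps12 has 23 named pseudogenes but whole counts in all 15 lungs, as had Rps27a and Rps3a1. Rps2 and Rpl5 were not whole in any lung.

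Other genes of translation were taken from lists made with earlier results of these data known. In OVA over saline, 15 of 38 genes of ribosomal RNA processing and ribosome assembly rose and 2 fell (44.7% called, median 0.27). Among all genes 37.1% were called and 19.3% were called higher, and of the 81 ribosomal protein genes 6 rose and 1 fell. With the log2 Rn45s share added to the fit, 0 of the 38 were called (median 0.14), where 4.73% of all genes were. Without it Wdr12, of the complex that processes large subunit RNA, was at 0.85 (SE 0.15, adjusted p = 7.28e-04). The nucleolar protein nucleolin (Ncl) was at 0.76 (SE 0.14, adjusted p = 0.00108). Utp3, of the small subunit processome, was at 0.65 (SE 0.12, adjusted p = 0.00110). With anti-IL-4Ra over saline, 7 of 38 rose and 2 fell, a share near that of all genes (26.6% called, 13.9% higher). The 2 that fell were Nop10, a part of snoRNA-guided RNA modification complexes, and Sbds, which readies the large subunit for joining, at -0.59 and -0.46 with OVA and -0.61 and -0.49 with anti-IL-4Ra.

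Of 6 elongation factors, Eef1b2 (0.88, SE 0.15, adjusted p = 5.81e-04) and Eef1g (0.49, SE 0.16, adjusted p = 0.0278) rose with OVA, and both are subunits of the factor that exchanges GDP for GTP on eEF1A. Of 27 initiation factors, Eif3a (0.49) and Eif5b (0.36) rose and Eif1 (-0.34) fell. Of 10 other genes with TOP mRNAs, Npm1 (0.92, SE 0.18, adjusted p = 0.00132), which shuttles ribosome parts from the nucleolus, and Pabpc1 (0.56, SE 0.15, adjusted p = 0.00849), which binds poly(A) tails, rose. Of 11 genes listed as hosts of snoRNAs, 5 rose and 0 fell, with Gas5, itself a TOP transcript, at 0.74 (SE 0.22, adjusted p = 0.0167) and Snhg11 at 2.25 (SE 0.26, adjusted p = 3.57e-05).

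Of 14 genes of RNA polymerase I, Taf1d alone was called (1.21, SE 0.23, adjusted p = 0.00120). Among 15 genes of growth signalling to ribosomes, Myc rose (1.48, SE 0.26, adjusted p = 7.29e-04), as did Pdcd4 and Rps6kb1, while Tsc2, Eif4ebp1 and Mycn fell. Among 10 genes of ribosome quality control and ribosomal stress, Mdm2 alone rose (0.37, SE 0.11, adjusted p = 0.0167). Mitochondrial ribosomal proteins, the counterparts in the organelle, had 6 higher and 4 lower of 77 (median -0.06), and nuclear subunits of oxidative phosphorylation 6 higher and 4 lower of 73 (median -0.16). Between anti-IL-4Ra and OVA, 0 genes of these lists were called, where 0.302% of all genes were.

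**Figure D5:**
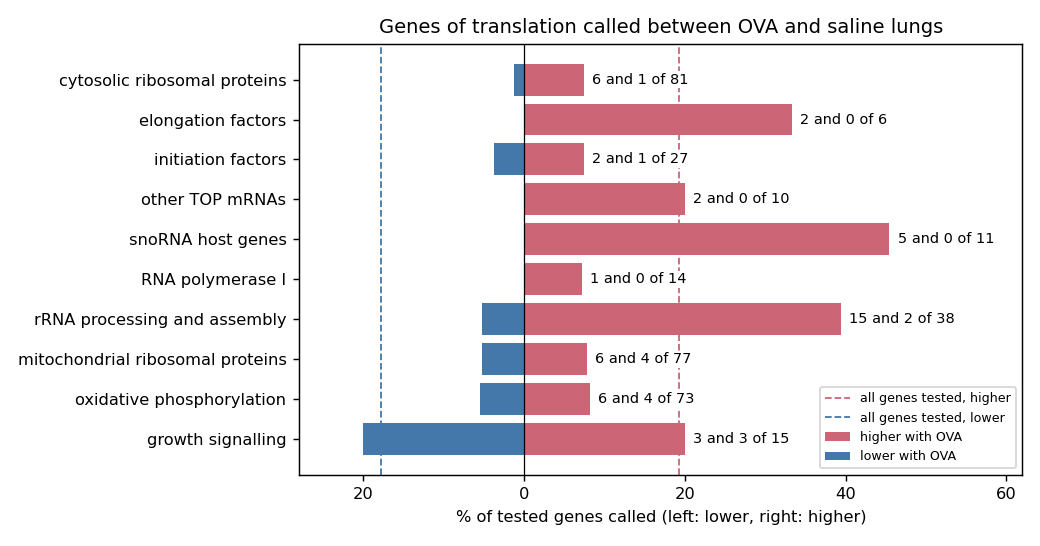
Bars give the percent of tested genes of each list called higher (right, red) and lower (left, blue) with OVA over saline, with counts beside them, and dashed lines give the same over all 15905 genes. The bar for ribosomal protein genes (6 and 1 of 81) is shorter than both dashed lines, and the bar for processing and assembly genes (15 and 2 of 38) passes the line for higher genes.

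Markers of several cell types differed between the same groups. Among all genes, 37.1% were called with OVA over saline and 26.6% with anti-IL-4Ra over saline. B cell markers held 0.0132 to 0.0259% of counts in saline, 0.0335 to 0.154% in OVA and 0.0267 to 0.123% in anti-IL-4Ra lungs, and 8 of 8 rose with OVA and 6 of 8 with anti-IL-4Ra over saline. T cell markers held 0.00859 to 0.0139, 0.0179 to 0.0494 and 0.0205 to 0.0395%, and 10 of 11 rose in each of these comparisons. Markers of dividing cells held 0.0300 to 0.0566, 0.0837 to 0.175 and 0.0794 to 0.138%, with 11 and 10 of 12 higher. Plasma cell markers held 0.0380 to 0.0499, 0.0868 to 0.204 and 0.0555 to 0.377%, with 6 higher and 1 lower of 8 with OVA and 7 higher with anti-IL-4Ra. Endothelial markers were lower, at 0.427 to 0.550, 0.167 to 0.329 and 0.160 to 0.379%, with 9 of 10 lower in each, and so were 7 of 8 markers of alveolar type 1 cells in each. Red blood cell markers held 0.360 to 1.22, 0.185 to 0.331 and 0.0557 to 0.770%, with 7 and 2 of 8 lower. Of 7 RNAs listed as signs of RNA class or quality, which together held 3.15 to 5.11, 7.71 to 17.1 and 5.18 to 15.3%, 4 rose with OVA (Rn45s and the nuclear RNAs Malat1, Neat1 and Xist, at 2.02, 0.74, 0.74 and 1.01 on the log2 scale) and 2 with anti-IL-4Ra (Rn45s and Xist). Of the markers on these lists and found in the table, Hbb-bs alone was at 0 in all lungs. With OVA over saline, eosinophil markers had 4 higher and 2 lower of 7, macrophage markers 4 and 1 of 9, and neutrophil markers 1 and 3 of 8. Club and goblet cell markers had 6 and 4 of 10, alveolar type 2 markers 1 and 5 of 8, and fibroblast markers 3 and 2 of 8. Ciliated cell markers had 0 and 1 of 8, and cardiac muscle markers 0 and 1 of 9. The part of these cells and RNAs in the changes of ribosomal protein genes was not tested.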

How the data were processed

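RNA of 15 lungs, 5 per group, was sequenced as strand-specific libraries, per the labels' protocols. The authors deposited expected counts per gene symbol, made with RSEM 1.2.15 and Bowtie2 2.1.0 per the submitters' processing notes. Those notes name the human build hg38, although the symbols are of mouse genes, and the annotation behind them is not named there. The deposited expected counts were rounded to the nearest whole number, the 15905 of 24054 genes that pass edgeR's filterByExpr were kept, totals were scaled by TMM, and all 15 libraries were fitted together in edgeR 4.0.16 (R 4.3.3) by group with glmQLFit and glmQLFTest. P-values were adjusted over all genes tested by Benjamini-Hochberg, separately in each of 3 comparisons. SEs are the size of the log2 fold change over the square root of F. CPM use TMM-scaled totals. Fold changes of genes with few counts depend on edgeR's prior count.

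Alternatives were DESeq2 1.42.0, limma voom 3.58.1, other scalings and filters, a replicate block, a fit of 2 groups at a time, the log2 Rn45s share as covariate, and leaving out each lung. Leaving out saline 1 and 2 together, leaving out libraries above 9% Rn45s, thinning to the smallest library and the slope on Rn45s were added after seeing the data. The Rn45s share was tested by exact permutation over the 252 splits of 5 against 5 lungs. The edgeR fit was run on simulated counts with known changes, with a spread between libraries that was set and not taken from these data. Of 100 changes of 2-fold it recovered 37 in OVA over saline, 37 in anti-IL-4Ra over OVA and 40 in anti-IL-4Ra over saline. Of 100 changes of 4-fold it recovered 99, 100 and 100 in the same order. Calls on unchanged genes were 7, 6 and 3 of 143. Smaller changes were not simulated. No other genes were changed, while 5899 were called in OVA over saline, so these counts do not measure the power of the tests here.

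The members and gene lists were chosen with earlier results of these data known. Named were the 5 called members with the largest and the 5 with the smallest fold change in each comparison, or the 3 smallest p where fewer than 3 were called, the 3 farthest from the members' median, the paralogs and qPCR references, Rpsa, Fau, Rpl5, Rpl11, Rps6, Rps19 and Rn45s, and up to 4 called genes of each other list by p. Genes that make up a count of 5 or fewer, and Rps20, were named after their values were seen. Levels were not compared between genes, since no gene lengths were used. Promoter sequences and starts are RefSeq's for GRCm38.p6, and snoRNA and pseudogene positions GENCODE M21's. Proteins were not used here. Some genes that fit this rule are not reported here.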

Additional observations from a re-analysis of the deposited data

Results flagged for a closer look

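Of 105 groups of 5 lungs examined (the named genes, the summed ribosomal protein share and the Rn45s share, by group), 10 held a lung whose gap to its nearest neighbour took up most of the group's range, by Dixon's limit for 5 samples (0.710). Chance flags about 1 in 20 groups, and values of different genes in the same lung are not independent. In OVA 2, 4 genes stood above the rest of the group. Fau was at 454 CPM against 247 to 294 in the other 4 lungs. Rpl19 was at 551 against 308 to 362, Rps18 at 443 against 241 to 284, and Rps6 at 719 against 440.2 to 511 CPM. In anti-IL-4Ra 4, 5 genes did. Fau was at 601 CPM against 263 to 344, and Rpl3 at 951 against 549.5 to 652. Rpl30 was at 45.2 CPM against 10.3 to 17.2. Rplp0 was at 935 against 456 to 581, and Rpsa at 1520 against 617 to 773 CPM. In anti-IL-4Ra 5, Rps12 stood below the others, at 445 CPM against 577 to 587. OVA 2 and anti-IL-4Ra 4 were also the libraries with the largest summed share of ribosomal protein mRNA, and anti-IL-4Ra 5 had the lowest Rn45s share of its group.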

How the results depend on the processing

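Of 102 results for single named genes, 20 passed the threshold, and of these Rn45s in the comparisons with saline kept its call in every alternative run for it. None of the 20 changed sign in any alternative, and 10 of the other 82 passed in at least 1. A value that passed in neither setting was compared by size only. The members called with OVA over saline, 7, numbered 4 with no filter on low counts, 0 with the Rn45s share as covariate and 1 without saline 1 and 2. Leaving out single lungs gave 3 to 9. With RLE size factors or library totals alone the split was 7 higher and 0 lower. The members called with anti-IL-4Ra over saline, 9, numbered 14 by DESeq2, 5 with no filter, 5 with at least 10 counts in 5 libraries, 0 with the covariate, 0 without saline 1 and 2, 1 without the libraries above 9% Rn45s, and 3 with counts thinned to the smallest library. Leaving out single lungs gave 3 to 15. With OVA over saline, 37.1% of all genes were called, 29.3% with no filter, 4.73% with the covariate and 23.9% without saline 1 and 2. With anti-IL-4Ra over saline, 26.6% of all genes were called, 31.8% by DESeq2, 19.9% with no filter and 26.5% with at least 10 counts. That share was 2.35% with the covariate and 12.9% without saline 1 and 2. It was 3.47% without the libraries above 9% Rn45s and 24.4% with thinned counts. The cause of these shifts was not tested. Members called with anti-IL-4Ra over OVA numbered 0 in all settings run. The members' median ran from -0.04 to 0.20 with OVA over saline, from 0.06 to 0.27 with anti-IL-4Ra over saline, and from -0.03 to 0.24 with anti-IL-4Ra over OVA when lungs were left out. The Rn45s share with anti-IL-4Ra over saline was 4.34 to 7.02 percentage points higher without single lungs. Settings built on Rn45s were not run for Rn45s itself. Same-numbered lungs of different groups had deviations from their group means correlated at -0.546 to 0.347 (2 of 15 pairs over 0.1). Lungs of different numbers were correlated at -0.409 to 0.426 (27 of 60 pairs over 0.1). By this measure same-numbered lungs were no more alike than others. Whether they shared a cage or a day is not stated and cannot be told from it. With the replicate number as a block, 4 members were called with OVA over saline and 2 with anti-IL-4Ra over saline. Of all genes, 29.1% and 18.2% were called with the block, in the same order. Genes with few counts, such as Rps4l and Rpl30, and the shallower OVA and anti-IL-4Ra libraries limit the precision.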
